A study of Mus musculus with 28 samples.

Results

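The 82 genes described here encode the proteins of the cytosolic ribosome, 50 of the large (60S) subunit and 32 of the small (40S) subunit by name. They were taken by gene symbol from a table of 23015 gene rows: names of the form Rpl or Rps with a number and an optional a, x or l, together with Rplp0, Rplp1, Rplp2 and Rpsa. Kinases of the Rps6k family were left out, as were 8 other ribosomal names, among them the joined entry for Rpl34, Rpl36al, Rps4y2 and annotated pseudogenes. The rule used names and no expression value. All 82 matched a RefSeq gene by symbol, and they lay on 19 chromosomes with 4 (Rpl10, Rpl39, Rps4x and Rpl36a) on the X. Of the 82, 80 passed the filter on low values and 79 were above 0 in every library.

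Each ribosome carries a single copy of most of these proteins, so cells make them in near equal numbers and adjust them together. Their mRNAs typically begin with a cytosine followed by a run of pyrimidines, the 5′ terminal oligopyrimidine tract, through which mTOR signalling and the binding protein Larp1 set their translation. The transcription factor Myc and its relatives raise the output of ribosome components in growing cells, and the hair matrix of the growing follicle is among the fastest dividing tissues of the mammal.

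The samples were cell populations sorted from mouse back skin at postnatal day 5, on a mixed FVB/N, C57BI/6J and CD1 background, with 2 libraries for each of 14 populations. Unless stated otherwise the animals carried Lef1-RFP, a reporter for the Wnt effector gene Lef1. A line with K14-H2BGFP, a nuclear green reporter driven by the keratin 14 promoter of basal keratinocytes, gave 8 populations. Green cells of the epidermal preparation were named Epi (epidermis). From the dermal preparation came ORS (outer root sheath, bright green), Mx (matrix progenitors, dim green), TAC (matrix progenitors labelled as expressing Shh, dim green and red), Mc (melanocytes, red and CD117+), DF (dermal fibroblasts, red, CD117- and ITGA9-), DP (dermal papilla, red and ITGA9 high) and Neg (a mixture of negative cells). A line with Sox2-GFP gave the GFP- zigzag papilla (ZZ-DP) and the GFP+ guard and awl/auchene papilla (G/AA-DP), and a line with Crabp1-GFP gave the GFP- guard papilla (G-DP) and the GFP+ awl/auchene and zigzag papilla (AA/ZZ-DP). A line with K14-RFP and Sox9-GFP, for which Lef1-RFP is not labelled, gave GFP+ bulge stem cell precursors (HF-SC) and the GFP- rest of the sheath (HF-ORS). The gate for TAC lies within that for Mx, and nothing in the labels says whether the 2 libraries of a population came from separate mice, so p-values measure the spread between libraries only.

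Expression was given as FPKM, by its usual definition fragments per kilobase of transcript scaled to the mapped fragments of the library. It sets a gene's level relative to the rest of the library and not per cell. Any further scaling between libraries is not given in the sources used here. In sorted bulk RNA, fewer cells of a type and less RNA per cell cannot be told apart. The summed FPKM of a library ran from 285981 to 515224. Summed FPKM of 6 papilla marker genes was 1194 to 2662 in the 10 papilla libraries, against 229 and 422 in DF. That of 6 fibroblast genes was 2419 and 5659.9 in DF and 717 to 3390 in the 10 papilla libraries. In DP it was 3390 and 1927, so the fibroblast list did not separate DF from DP. The DF libraries also held markers of other cells: 7 melanocyte genes summed to 1321 and 1267 FPKM there, against 12020 and 15376 in Mc, and 5 keratinocyte genes summed to 499 FPKM in DF replicate 1 and 139 in replicate 2, against 40.4 and 42.9 in DP and 1093 to 24834 in the 8 epithelial libraries of the same line. In DF 4 pericyte and smooth muscle genes summed to 568 and 579 FPKM, against 17.7 and 33.1 in DP and 2.57 to 138 in those epithelial libraries, and 5 Schwann cell genes to 64.5 and 60.0, against 1.19 and 0.996 in DP.

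The sequence around the transcription start was searched for this pyrimidine tract. RefSeq promoters (GRCm38.p6) were held for 62 of the 82 genes, and the 15 bases on either side of the listed start were searched on the gene's strand for a run of at least 8 pyrimidines, C or T. Such a run was present in 26 of the 62 (41.9%) and in 13.9% of all 27025 genes with a listed start. The windows below are written 5′ to 3′ with the longest pyrimidine run in capitals. Rpl35 (chr2:39005117-39005146, minus strand) and Rpl15 (chr14:18270972-18271001, minus strand) are shown for their long runs. Rps6 (chr4:86857353-86857382, minus strand) and Rplp0 (chr5:115559452-115559481, plus strand) are shown because they differed most among the skin populations. Rpl10 (chrX:74270801-74270830, plus strand) and Rpl39l (chr16:10170213-10170242, plus strand) are shown because their levels departed from those of the family.
Rpl35: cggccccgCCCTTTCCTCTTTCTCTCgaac
Rpl15: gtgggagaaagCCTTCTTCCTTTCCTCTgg
Rps6: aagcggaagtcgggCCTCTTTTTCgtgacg
Rplp0: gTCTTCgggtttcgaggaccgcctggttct
Rpl10: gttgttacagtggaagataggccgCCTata
Rpl39l: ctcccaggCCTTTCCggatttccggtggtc
Rpl35 held a run of 18 bases, Rpl15 of 17 and Rps6 of 10. Rplp0, Rpl10 and Rpl39l had no run of 8 in this window. A listed start can differ from the start used in skin, so a missing run says only that these letters are not in the window.

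The ribosomal protein genes were among the most abundant transcripts of every population, and together they made up 6.83% to 20.4% of a library's FPKM sum. Their summed FPKM was highest in HF-ORS at 83491 ± 21346 (SD, n = 2), followed by TAC at 78902 ± 5155, Mx at 78080 ± 13943 and Epi at 76605 ± 13905. A middle group held Mc at 59137 ± 15400, HF-SC at 56097 ± 3876, ORS at 55272 ± 8722 and Neg at 51121 ± 12738. DF stood at 40229 ± 12240. The 5 papilla sorts came last, at 32732 ± 9943 in ZZ-DP, 29502 ± 5395 in G/AA-DP, 28832 ± 5031 in DP, 28386 ± 6969 in AA/ZZ-DP and 22846 ± 4705 in G-DP. Most neighbours in this order lay within each other's spread, since the 2 libraries of a population differed by up to 1.55-fold. Epi and Mc, at the border of the top and middle groups, did not. The top of the order depended on the scaling: as a share of the library's FPKM sum TAC (19.0%) and Mx (18.6%) lay above HF-ORS (16.9%), and under quantile normalization 6 populations, HF-SC among them, lay above HF-ORS. The 10 papilla libraries, at 19519 to 39763 FPKM from 3 mouse lines, nevertheless all lay below the 8 epithelial libraries of the K14-H2BGFP line (49105 to 87938) and the 4 sheath libraries of the Sox9-GFP line (53357 to 98585). The large subunit genes summed to 1.39 to 1.67 times the small subunit genes across the 28 libraries, a narrower span than that of the sums.

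**Figure D1:**
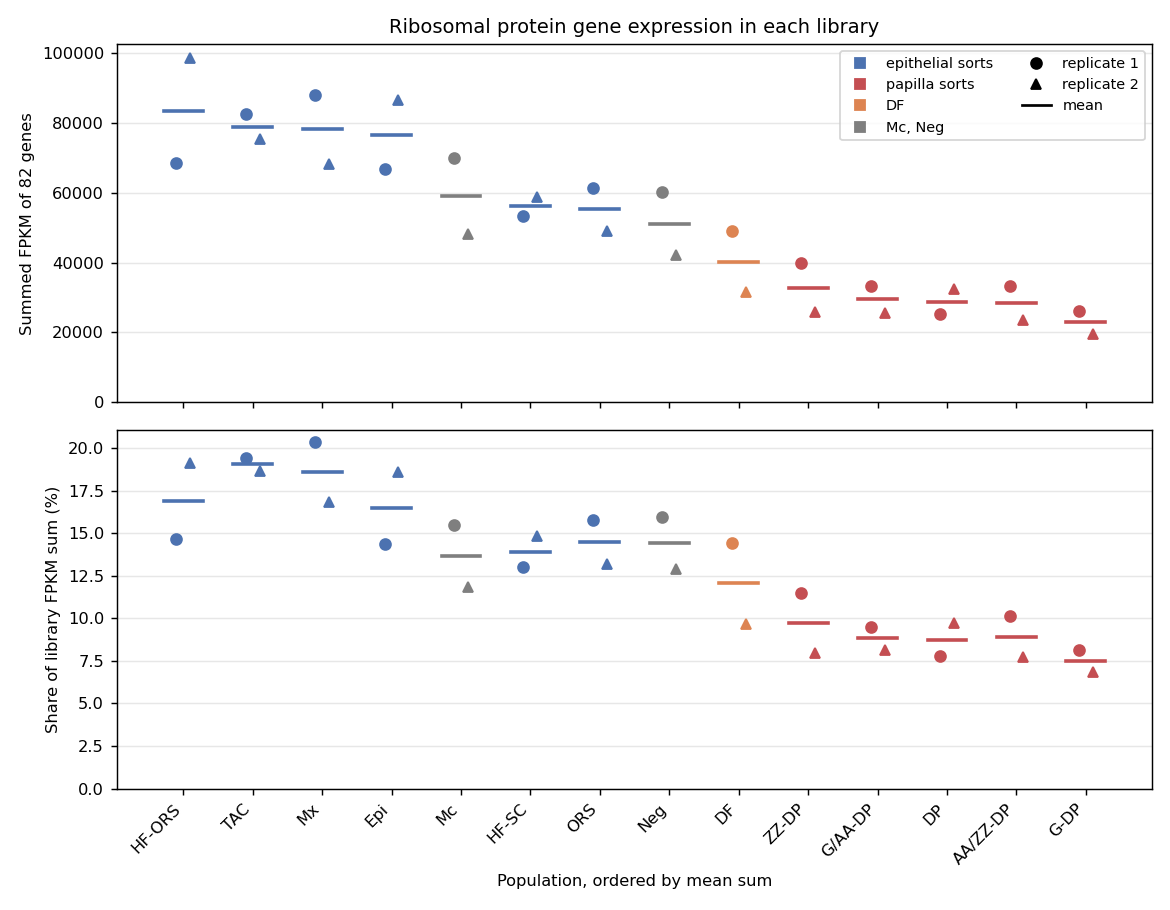
Summed FPKM of the 82 ribosomal protein genes (upper panel) and their share of the library's FPKM sum in percent (lower panel) for each of the 28 libraries, with populations ordered by mean sum and horizontal bars for means of 2 libraries. Papilla libraries lie between 19519 and 39763 FPKM, and the epithelial libraries of the K14-H2BGFP line lie between 49105 and 87938.

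Individual members covered a wide range of levels. By the median over 28 libraries, 11 genes reached 1000 FPKM or more, 60 lay between 200 and 1000, and 11 lay below 200. The most abundant were Rpl41, a peptide of the large subunit that is the smallest in the ribosome, with a median of 2003 FPKM, Rps27 with 1972, Rpl10a with 1655, Rpl38 with 1519 and Rpl39 with 1387. At the low end Rpl10l, a copy of Rpl10 known from testis, was listed at 0 in all 28 libraries. Rpl3l, a copy of Rpl3 known from striated muscle, was listed at 0 in 24 libraries and reached at most 0.65 FPKM. Rpl39l, also among the 5 lowest, is described below. Rpl7l1, a relative of Rpl7, had a median of 10.5 FPKM and Rps15a one of 54.1. With these copies and relatives left aside, FPKM medians still ran from 54.1 for Rps15a to 2003 for Rpl41, although most ribosomal proteins are present in a single copy. For 7 members (Rpl38, Rps15, Rpl32, Rpl31, Rps25, Rpl5 and Rps27a) the deposited locus was more than 3 times as long as the RefSeq gene, and their levels are uncertain for that reason.

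In most populations the 2 libraries differed in the same direction across most of the family. In 11 of the 14, between 67 and 77 of the 79 genes above 0 throughout were higher in the same library, and in the other 3 (TAC, G-DP and HF-SC) between 52 and 57 were. For instance, 77 genes were higher in DF replicate 1 than in DF replicate 2, by a median of 0.58 on the log2 scale, and 76 were higher in Epi replicate 2 than in Epi replicate 1. The keratinocyte markers, at 499 and 139 FPKM, were also higher in DF replicate 1. Their part in the shift was not tested. The plot of 78 of these genes by library shows this as a difference in shade down the DF and Epi columns.

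**Figure D2:**
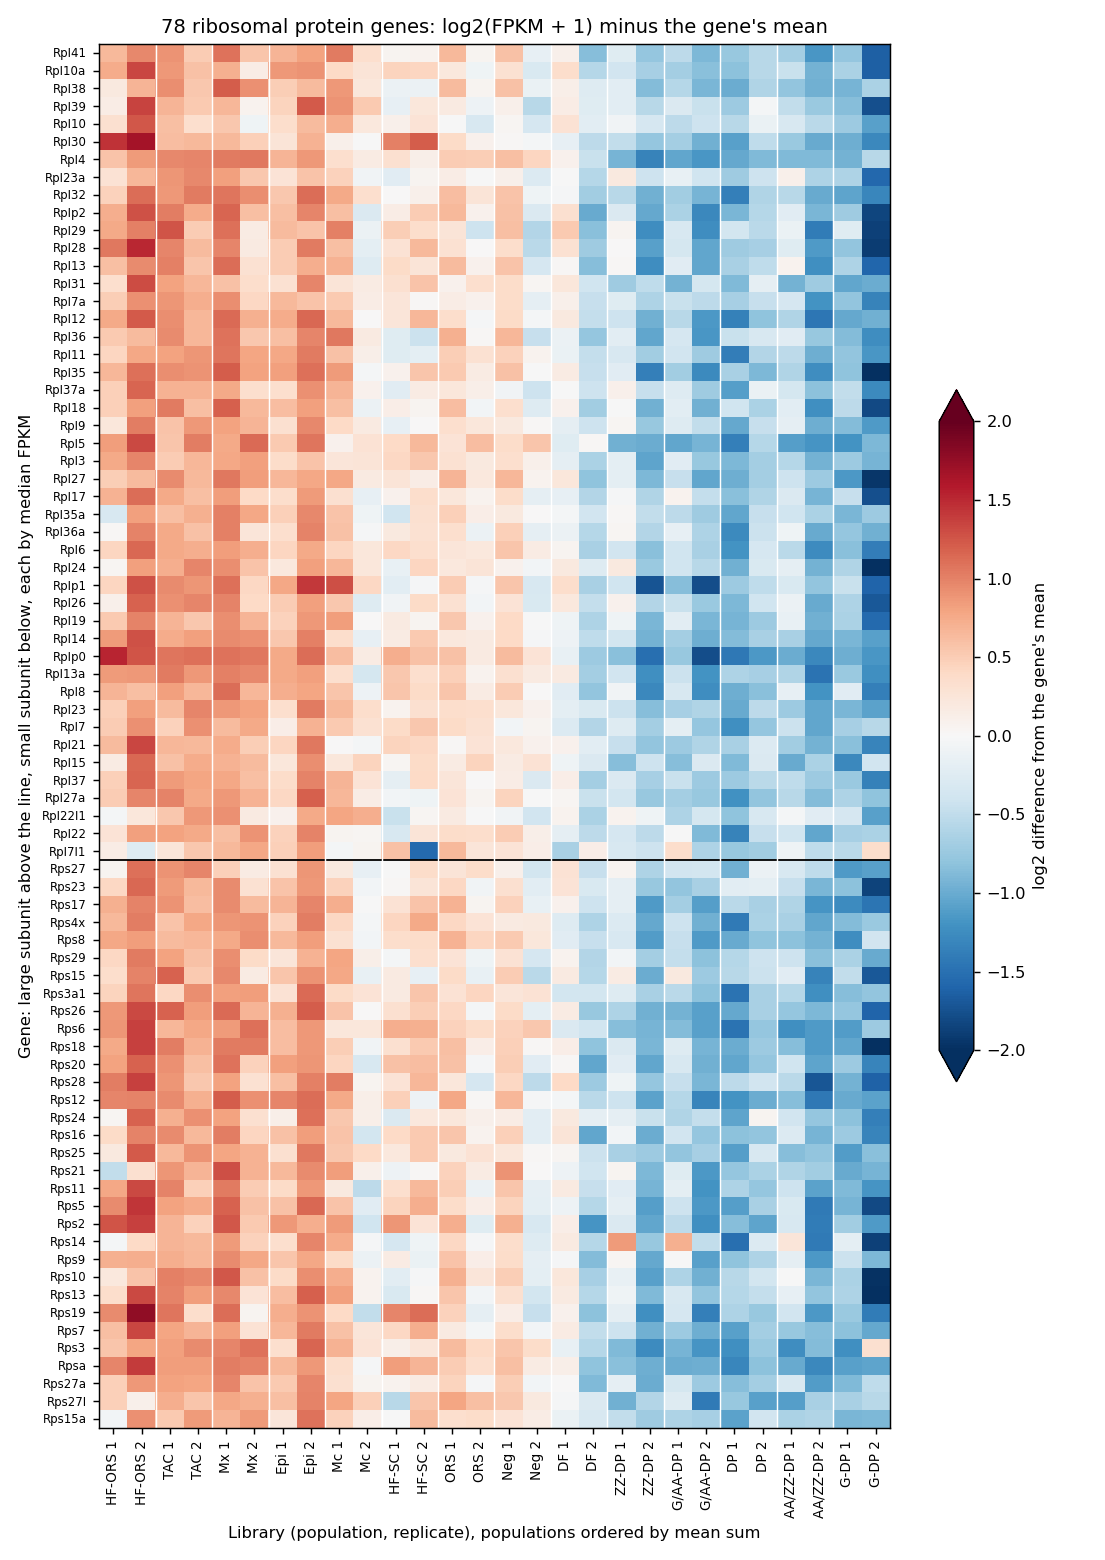
Heat map of 78 of the 79 ribosomal protein genes above 0 in all 28 libraries, with colour for the log2(FPKM + 1) of each library minus the gene's mean (red higher, blue lower, scale clipped at 2 in either direction). Epithelial columns on the left are red and papilla columns on the right are blue across both subunits, and Rpl30 and Rps19 stand out in the HF-ORS and HF-SC columns.

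The ribosomal protein genes were higher in the epithelium than in the mesenchyme of the K14-H2BGFP line. The comparison set the mean of Epi, ORS, Mx and TAC (8 libraries) against the mean of DF and DP (4 libraries), with limma on log2(FPKM + 1). Genes whose p, adjusted by Benjamini-Hochberg over all 15052 genes tested, was under 0.05 count as called. Of the 80 members tested, 77 were called higher, against 22.3% of all genes, and 1 was called lower (Rpl39l), against 21.8%. The median log2 change of the members was 1.12, a 2.17-fold difference, while that of all genes was 0.05. Among 915 other genes with a median of at least 50 FPKM the median change was 0.39. All 8 epithelial libraries lay above all 4 mesenchymal libraries for 41 members, against 8.58% of all genes. For 38 of the 79 members above 0 throughout the groups overlapped, and for 35 of these the overlap came from DF replicate 1 alone. The 7 melanocyte marker genes, which the DF libraries also held, were called lower in epithelium in 7 of 7 cases, and the pericyte and Schwann cell genes given above were also high in DF. The part of such cells in the members' difference was not tested.

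Both subunits took part. Of the large subunit genes above 0 throughout, 45 of 47 were called higher with a median log2 change of 1.12, and of the small subunit genes 32 of 32 with a median of 1.21. Members with a pyrimidine run at the start (26 genes) and members without one (33 genes) had the same median log2 change of 1.12. Rpl10 and Rpl29 were the members above 0 throughout that were not called.

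The size of the members' median difference, though not its direction, depended on the scaling of the libraries. With each library scaled to the same FPKM sum, 68 members were called (67 higher), beside 6347 of all 15052 genes (2001 higher). The members' median change was 0.79 while that of all genes shifted to -0.22. With quantile normalization, 48 members were called (47 higher), beside 6504 of all genes (3504 higher). The members' median was 0.58 against 0.11 for all genes. Then 75 members were positive and 5 negative. The summed level of DF then lay close to that of Epi, at 1.03 and 1.06 relative to the mean of the 14 populations. DP stood at 0.793. As a share of the library's FPKM sum, DF replicate 1 (14.41%) lay above Epi replicate 1 (14.39%) and ORS replicate 2 (13.2%). The members' median stood above that of all genes by 1.07, 1.01 and 0.47 on the log2 scale under the 3 scalings. Within the libraries numbered 1 the median log2 difference was 1.11, and within those numbered 2 it was 1.18. In both, 79 of 79 genes were higher in the epithelial mean. Members shift together between libraries, so this agreement is that of a few libraries and not of 79 genes. The smaller difference within number 1 was that from DF, at 0.67, where the difference from DP was 1.56.

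The 3 stalk proteins, which recruit elongation factors to the large subunit, were all called. Rplp0, the scaffold of the stalk (chr5:115559467-115563729), measured 499 and 635 FPKM in Epi, 442 and 334 in ORS, 626 and 610.1 in Mx and 614 and 633 in TAC. It measured 265 and 176 in DF and 108 and 132 in DP. Every epithelial library was thus above every mesenchymal one. The log2 change was 1.74 ± 0.19 (SE), a 3.33-fold difference and the highest of all members called, at an adjusted p of 3.8e-07 by limma. The partners Rplp1 and Rplp2, which bind it as dimers, changed by 1.13 ± 0.31 and 1.28 ± 0.29. For both, DF replicate 1 (550.3 and 942 FPKM) lay within the epithelial range.

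Among small subunit genes the changes of Rps12, Rps3, Rpsa and Rps6 were high. Rps6, the main ribosomal substrate of S6 kinase (chr4:86854099-86857367), measured 840 and 1008 FPKM in Epi, 757 and 713 in ORS, 997 and 1182 in Mx and 876 and 944 in TAC. The values were 449 and 415 in DF and 198 and 322 in DP. The groups did not overlap, and the log2 change was 1.45 ± 0.16 (adjusted p 2.4e-07, limma). Rpsa, which also serves as a laminin receptor, ran from 250.4 to 402 FPKM in the epithelial libraries and from 80.1 to 216 in the mesenchymal ones, a log2 change of 1.45 ± 0.17. Rps12 changed by 1.52 ± 0.22 and Rps3, which lines the mRNA entry channel, by 1.47 ± 0.23, neither with overlap. In the large subunit Rpl32 changed by 1.48 ± 0.21 and Rpl4 by 1.39 ± 0.16, also without overlap.

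Genes in which a reduced dose has known consequences moved with the rest. Of the 9 members whose loss of a copy is known to cause Diamond-Blackfan anaemia in people, 9 were called higher, with a median log2 change of 1.10. In the whole family 77 of 80 were called higher, against 22.3% of all genes. A full count in this list or the next therefore sets neither apart from the family. Rps24 was lowest at 0.79 ± 0.25 and Rpl11, which with Rpl5 binds Mdm2 and stabilises p53, was highest at 1.41 ± 0.18. Rpl11 ran from 769.6 to 1304 FPKM in the epithelial libraries and from 239 to 568 in the mesenchymal ones, without overlap. Among 5 members with known mouse mutants of skin, coat or tail, 5 were called higher with a median of 1.11. They were Rps20 (1.37 ± 0.25) and Rps19 (1.09 ± 0.29), whose dark skin mutations darken the epidermis, Rpl27a (1.25 ± 0.17), Rpl38 (1.11 ± 0.22) and Rpl24 (0.92 ± 0.27), the belly spot and tail gene. Rpl24 was no longer called when libraries were scaled to the same sum (0.58).

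**Figure D3:**
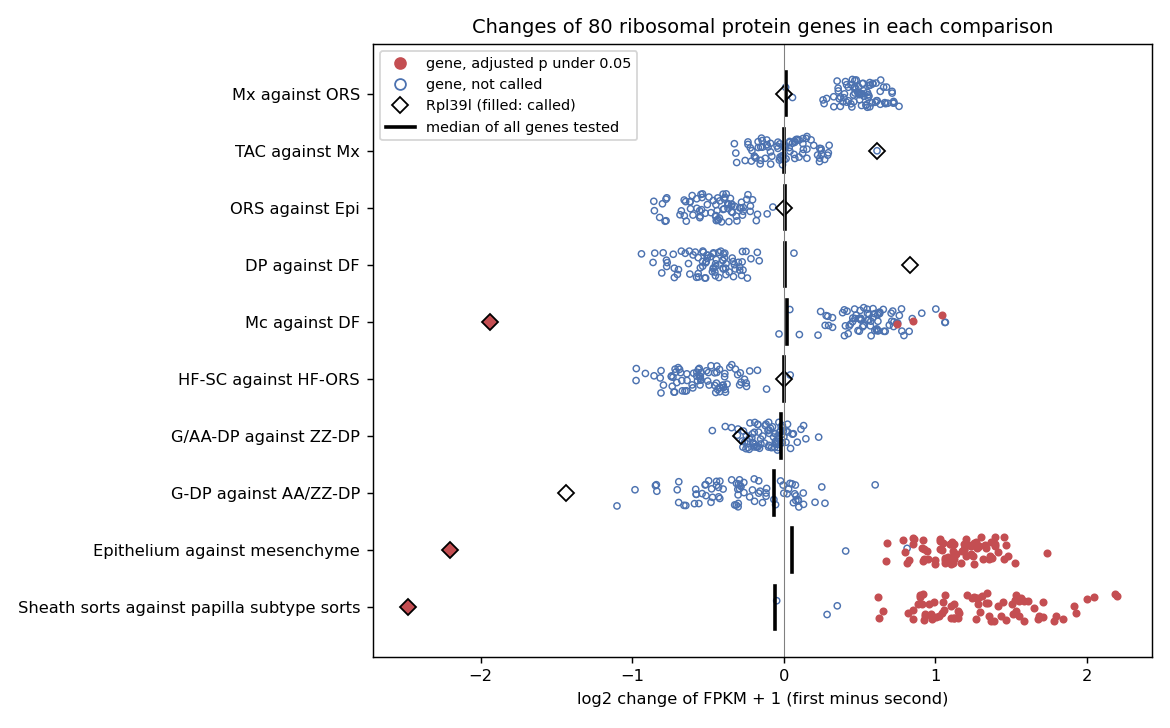
Log2 change of FPKM + 1 for the 80 ribosomal protein genes tested, in each of 10 comparisons (rows, first population minus second), with filled red points for genes called at an adjusted p under 0.05, diamonds for Rpl39l and black bars for the median of all genes tested. The members lie together to the right of the bar in the lowest 2 rows, with medians of 1.12 and 1.27, and Rpl39l lies to the left there.

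To see which members departed from the family, each library was also centred on its median member, an analysis added after the values were seen. Then 5 of the 80 members were called. Centring also shifts all other genes, and 10849 of all 15052 genes were called. With so many called the adjustment is mild, so calls of small changes are weak. Rplp0 exceeded the family's difference by 0.59 ± 0.19 on the log2 scale. Rpl10, Rpl39, Rps23 and Rpl39l fell short of it, by -0.73 ± 0.17, -0.46 ± 0.17, -0.47 ± 0.17 and -3.35 ± 0.34. Rps23, a protein of the decoding centre, was named after its values were seen.

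Rpl10 had the lowest log2 change of the members above 0 throughout. It completes the large subunit late in assembly (chrX:74270816-74273135). It measured 1791 and 2177 FPKM in Epi, 1398 and 1121 in ORS, 2049.6 and 1332 in Mx and 2140.4 and 1768 in TAC, against 1718 and 1214 in DF and 959 and 1281 in DP. The ranges overlapped over most of their length, and the log2 change was 0.41 ± 0.21 (adjusted p 0.13, limma). Rpl39, which lines the exit tunnel, changed by 0.68 ± 0.26 (adjusted p 0.038), but under quantile normalization its sign turned to -0.13. Rps27 (0.85 ± 0.24) turned likewise, to -0.070. Rpl10 and Rpl39 are X-linked, as are Rps4x, which changed by 1.39 ± 0.20, and Rpl36a, which was called higher. The part of X linkage was not tested.

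Rpl39l went against the family. This near copy of Rpl39, known from male germ cells, lies at chr16:10170197-10174911. The interval begins before the sequence window shown above (chr16:10170213-10170242), which therefore does not hold the interval's start. Rpl39l was listed at 0 in both libraries of Epi, ORS and Mx and in TAC replicate 2, and at 1.34 FPKM in TAC replicate 1. It measured 2.46 and 3.25 FPKM in DF and 3.60 and 9.15 in DP. In the papilla sorts of the other lines it measured 9.21 and 6.42 in ZZ-DP, 6.56 and 5.75 in G/AA-DP, 8.14 and 3.59 in AA/ZZ-DP and 4.70 in G-DP replicate 1, with 0 listed in replicate 2. Mc, Neg, HF-SC and HF-ORS were listed at 0 in both libraries. Thus 11 of the 12 libraries of papilla and DF held it and 15 of the 16 others were listed at 0. All mesenchymal libraries of the K14-H2BGFP line lay above all epithelial ones, against 10.6% of all genes. The log2 change was -2.20 ± 0.35 with a pseudocount of 1 (adjusted p 3.1e-05, limma) and ranged from -4.89 to -0.85 with pseudocounts of 0.1 and 5, so no fold is given. The level never exceeded 0.84% of that of Rpl39 in the same library. Rpl39l shares much of its sequence with Rpl39 and its copies, and an assignment of reads between them was not tested.

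**Figure D4:**
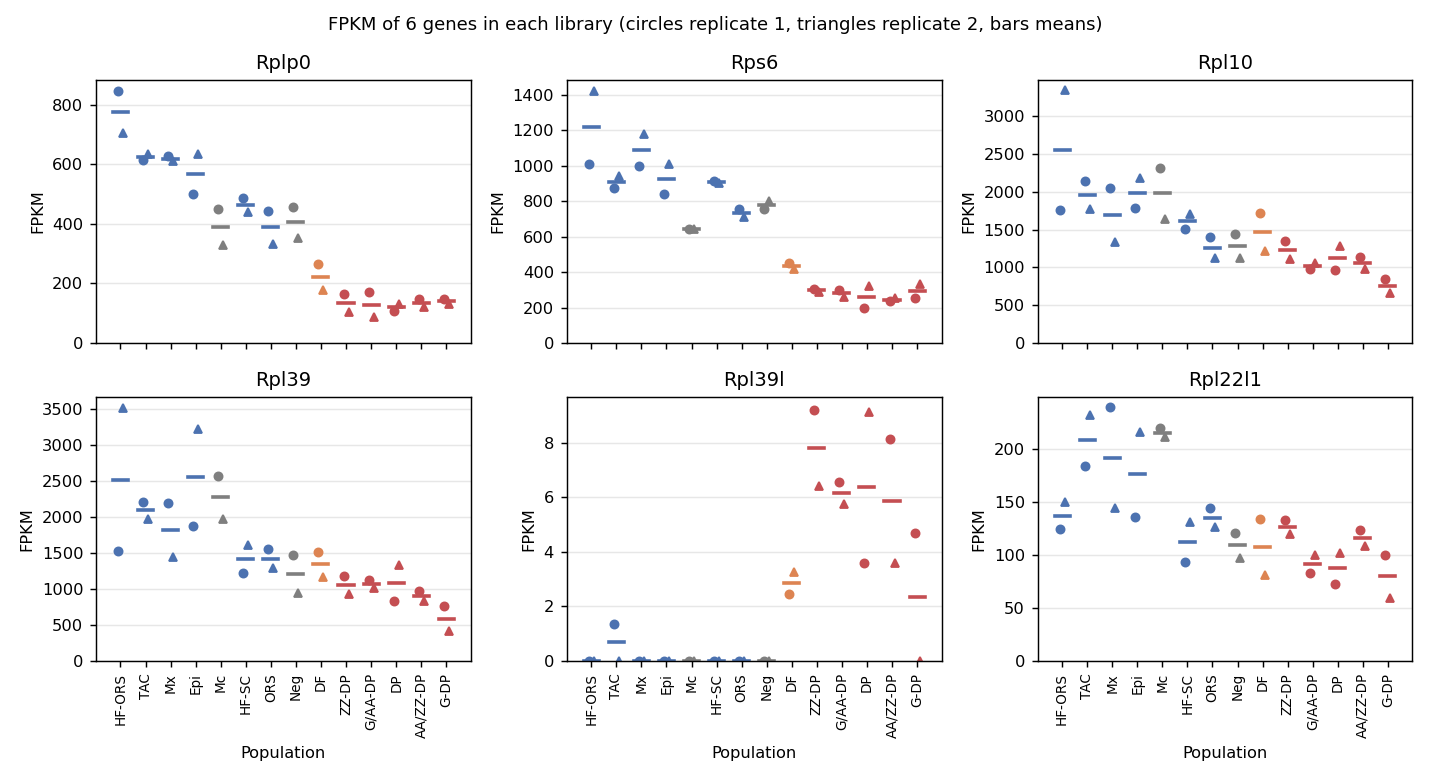
FPKM of Rplp0, Rps6, Rpl10, Rpl39, Rpl39l and Rpl22l1 in the 28 libraries, with populations in the order of the family's mean sum, points for libraries and bars for means of 2. Rplp0 and Rps6 fall from left to right, Rpl10 overlaps between compartments, and Rpl39l is above 0 in DF, in the papilla libraries other than G-DP replicate 2, and in TAC replicate 1.

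The other paralogs did not share this pattern. Rpl22l1, which can replace Rpl22 in the ribosome, was the more abundant of the pair in all 28 libraries, at 1.02 to 2.96 times the FPKM of Rpl22. Both were called higher in epithelium, Rpl22 by 1.28 ± 0.20 and Rpl22l1 by 0.86 ± 0.19. Rps27l, a p53-induced relative of Rps27, stood at 2.35% to 7.70% of Rps27 and changed by 1.26 ± 0.21. Rpl7l1 changed by 1.04 ± 0.30, from 5.22 to 10.5 FPKM in the mesenchymal libraries to 11.5 to 17.8 in the epithelial ones. Rps4l has no row among the members.

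The libraries of the other mouse lines gave a comparison of the same kind, added after the values were seen. The mean of HF-SC and HF-ORS (4 libraries) was set against the mean of the 4 papilla subtype sorts (8 libraries). Mouse line and cell type cannot be told apart in it. Melanocyte markers summed to 28.6 to 981 FPKM in these papilla libraries and to 42.4 to 62.4 in the sheath libraries. The part of such cells was not tested. Of 80 members, 76 were called higher, against 25.2% of all genes, and 1 lower (Rpl39l), against 27.9%. The median log2 change was 1.27, with -0.06 for all genes. All sheath libraries lay above all papilla libraries for 58 members, against 14.2% of all genes. Under quantile normalization 42 of 80 members were called, beside 7642 of all 15052 genes, so the members' share was near that of all genes. Of these calls, 41 members and 3820 genes were higher. The members' median was 0.53, and 13 of 80 members were then negative, where 2 were with the deposited values.

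In that comparison Rpl30, a large subunit protein, had the highest change at 2.20 ± 0.17 (4.59-fold, adjusted p 1.6e-09, limma). Rpl30 (chr15:34440505-34443276) measured 2380.2 and 2715 FPKM in HF-SC and 3195 and 3731 in HF-ORS. It lay between 481 and 832 in the papilla subtype libraries. No library of the K14-H2BGFP line reached the sheath values, the nearest being Epi replicate 2 at 1907, and ORS measured 1527 and 1254. Rplp0 followed at 2.18 ± 0.19, with 439 to 846 FPKM in the sheath and 85.6 to 172 in the papilla subtypes. Rps19 changed by 2.05 ± 0.29 and Rpsa by 2.00 ± 0.17, each without overlap. Rpl39l was listed at 0 in all 4 sheath libraries. Of the members that were not called, Rpl22l1 changed by 0.29 ± 0.19 and Rpl7l1 by -0.05 ± 0.30, and Rps14 by 0.35 ± 0.38.

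Centred on the median member, 24 of the 80 were called in the sheath comparison, 13 above the family and 11 below. Of all 15052 genes 12016 were called, so the limit given for the first centred comparison holds here too. Rpl30 stood above it by 0.93 ± 0.16, Rplp0 by 0.92 ± 0.19 and Rps19 by 0.78 ± 0.20. Rpl22l1 stood below it by -0.98 ± 0.21, Rpl7l1 by -1.31 ± 0.36 and Rpl39l by -3.74 ± 0.34. Rplp0 and Rpl39l departed from the family in the same direction in both comparisons, which share no library. Rpl10 and Rpl39 were not called here, at -0.27 ± 0.17 and -0.20 ± 0.17. Whether they differ between the comparisons was not tested.

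For each gene, limma's F test asked whether the 8 K14-H2BGFP populations differed. It called 59 of the 80 members, against 48.9% of all genes. Of the 59, 57 were lowest in DP. The highest mean was in Mx for 33, in TAC for 17 and in Epi for 7. These places were not counted over all genes. The highest F values among genes above 0 throughout belonged to Rps6 (adjusted p 1.1e-05), Rplp0, Rpl4, Rpsa, Rpl11 and Rpl27a. The means of Rps6 spanned 2.1 on the log2 scale from DP to Mx, and those of Rplp0 2.37 from DP to TAC. After centring on the median member 2 were called, Rpl39l and Rpl10, beside 9609 of all 15052 genes. Without DP replicate 1, 35 members were called. With libraries scaled to the same FPKM sum 38 of 80 were called, beside 7160 of all 15052 genes. With quantile normalization 26 of 80 were called, beside 7109 of all genes. The members' excess over all genes was not kept under either scaling.

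Within the epithelium no member was called. In Mx against ORS 0 of 80 members were called by limma, against 3.93% of all genes, and 7 had an unadjusted p under 0.05. Yet 79 of 80 had a positive change with a median of 0.50, and both Mx libraries lay above both ORS libraries for 57 members, against 23.8% of all genes. The median of Mx against ORS was 0.37 with a common FPKM sum and 0.20 under quantile normalization. In ORS against Epi 0 were called, against 10.2%, with 7 at an unadjusted p under 0.05. The median was -0.43, and 79 were negative. It was -0.15 with a common FPKM sum, and under quantile normalization it was 0.02 with 41 members positive and 38 negative, so no direction is drawn from it. TAC against Mx gave 0 called, against 1.28%, 0 at an unadjusted p under 0.05, and a median of 0.00 with 41 positive and 39 negative. The SE of a single gene in these comparisons had a median of 0.36, and changes of this size were called for no member. Since members shift together between the libraries of most populations, the agreement in sign is that of 2 libraries and not of 79 genes.

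As deposited, HF-SC had lower values than HF-ORS in 78 of 80 members, with a median log2 change of -0.55. The median was -0.26 with a common FPKM sum, and under quantile normalization it was -0.014 with 37 members positive and 42 negative, so the difference depended on the scaling. Here 0 were called by limma, against 4.5% of all genes, and 9 had an unadjusted p under 0.05. Both HF-SC libraries lay below both HF-ORS libraries for 58 members, against 19.9% of all genes. Rps6, for example, measured 913 and 902 FPKM in HF-SC and 1013 and 1425 in HF-ORS, and Rplp0 486 and 439 against 846 and 705. Markers of other cells moved with this difference: 3 genes of the differentiated epidermis summed to 483 and 369 FPKM in HF-SC and 2871 and 1794 in HF-ORS, and the 6 papilla genes to 336 and 519 against 25.6 and 61.1. Their part in it was not tested.

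In the dermis DP had lower values than DF in 78 of 80 members, with a median of -0.46. By limma 0 of the 80 were called, against 7.0% of all genes, and 11 had an unadjusted p under 0.05. Both DP libraries lay below both DF libraries for 35 members, against 21.0%. The non-fibroblast markers of the DF libraries, given above, move with this difference, and their part in it was not tested. Among papilla subtypes G/AA-DP against ZZ-DP gave 0 called, against 0.00664%, 0 at an unadjusted p under 0.05, and a median of -0.10. G-DP against AA/ZZ-DP gave 0 called, against 0.505%, 4 at an unadjusted p under 0.05, and a median of -0.30. Melanocyte markers summed to 981 and 853 FPKM in G-DP and to 48.6 and 63.9 in AA/ZZ-DP. They summed to 28.6 in ZZ-DP replicate 1 and 707 in replicate 2, and to 102 and 55.7 in G/AA-DP. Their part was not tested.

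Melanocytes had higher values than fibroblasts in 78 of 80 members as deposited, with a median of 0.57, but under quantile normalization the median was 0.08, as for all genes, and 26 members were negative. By limma 3 members were called higher, against 7.79% of all genes, and 1 lower, against 11.9%. Rpl22l1 measured 219.7 and 211 FPKM in Mc and 133 and 81.1 in DF, without overlap, a log2 change of 1.04 ± 0.32 (adjusted p 0.024). Its partner Rpl22 changed by 0.40 ± 0.33 (adjusted p 0.46), and the ratio of the pair was 2.78 and 2.70 in Mc against 1.99 and 1.54 in DF. Rpl7 (0.85 ± 0.28) and Rpl23 (0.75 ± 0.26) were the others called higher. Rpl39l, listed at 0 in both Mc libraries, was called lower, but not with a pseudocount of 5 (adjusted p 0.079, limma). Without Mc replicate 1, Mc replicate 2 or DF replicate 2 in turn 0 members were called, and without DF replicate 1 there were 7.

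Genes that build and serve the ribosome were compared in the same fit of epithelium against mesenchyme. Over all genes 22.3% were called higher and 21.8% lower there. Of the ribosome assembly factors 28 of 30 were called higher, with a median log2 change of 1.19. Nhp2 (1.92 ± 0.29) and Gar1 (1.87 ± 0.31), proteins of the box H/ACA particles that modify rRNA, were highest. Riok1 (0.08 ± 0.19) and Bysl (0.10 ± 0.19) were not called. Translation factors and other genes with pyrimidine-tract mRNAs were called higher in 18 of 20, with a median of 1.08, led by the elongation factor subunits Eef1b2 (1.60 ± 0.15) and Eef1d (1.57 ± 0.18). Eif3e (0.42 ± 0.24) and Eif4a2 (-0.43 ± 0.19) were not called. Of 14 subunits and factors of RNA polymerase I, which transcribes rRNA, 7 were called higher (median 0.57), led by Cd3eap (1.57 ± 0.29) and Polr1c (1.55 ± 0.30). Of 71 mitochondrial ribosomal protein genes 38 were called higher and the median was 0.76. Each of these medians stands beside 0.05 for all genes.

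Among 17 genes of Myc and mTOR signalling, 6 were called higher, against 22.3% of all genes, and 1 lower, against 21.8%. The 3 Myc family genes were the highest. Myc measured 60.8 and 61.9 FPKM in Epi, 20.3 and 15 in ORS, 40.0 and 28.2 in Mx and 33.6 and 30.5 in TAC, against 33.9 and 15.5 in DF and 0.56 and 3.12 in DP. DF overlapped the epithelial range and DP did not. The log2 change of Myc was 2.12 ± 0.23, that of Mycn 2.19 ± 0.32 and that of Mycl1 2.31 ± 0.30. Mycn was high in Mx (33.0 and 36.8) and ORS (29.4 and 22.7) and near 0 in Epi (1.15 and 0.38) and DP (0.18 and 0.06). A link between the Myc family genes and the members' levels was not tested. Mxd4, a Myc antagonist, was lower, at -2.0 ± 0.35. Cell cycle genes were called higher in 15 of 15, with a median of 1.36. Their summed FPKM was 639 to 1442 in the epithelial libraries, 516 and 315 in DF and 499 and 284 in DP, and their part in the members' difference was not tested.

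**Figure D5:**
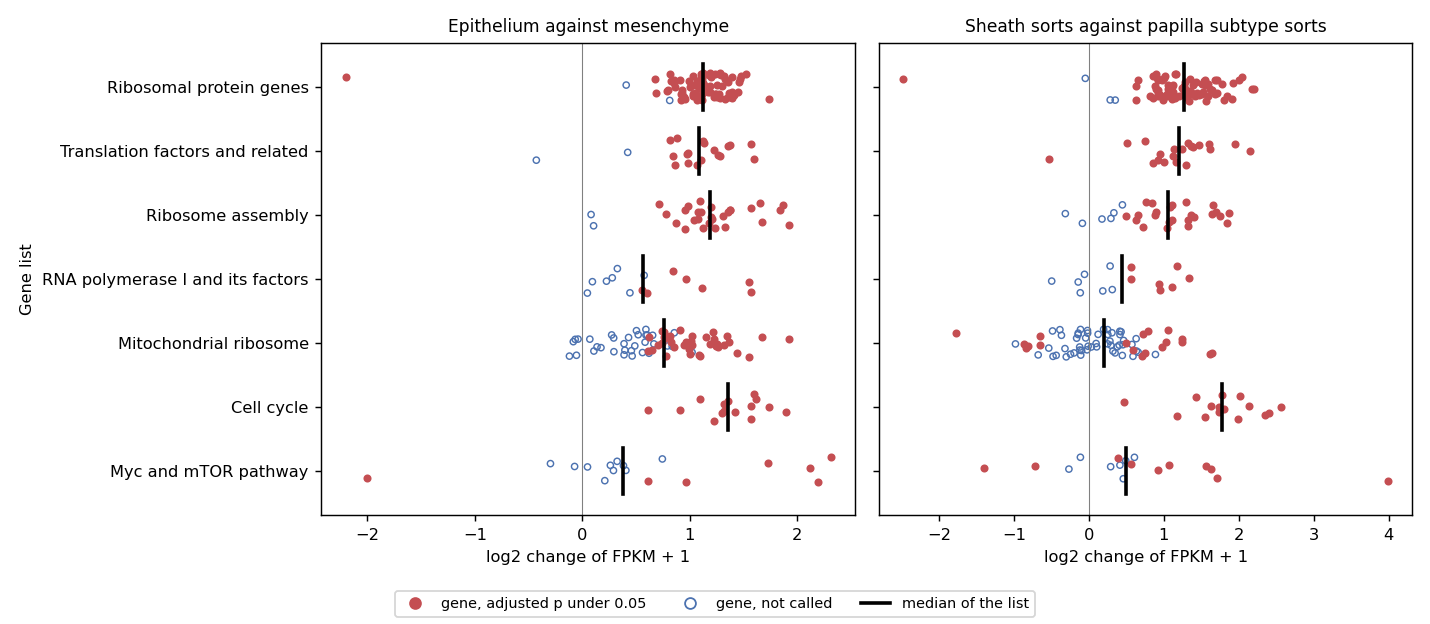
Log2 change of FPKM + 1 for the ribosomal protein genes and 6 other gene lists in epithelium against mesenchyme (left) and in the sheath sorts against the papilla subtype sorts (right), with filled red points for genes called and black bars for list medians. On the left the medians of the members (1.12), the assembly factors (1.19) and the translation factors (1.08) lie together, and on the right the mitochondrial ribosome (0.20) lies apart from the members (1.27).

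In the sheath against the papilla subtypes the same lists gave 24 of 30 assembly factors higher (median 1.05), 19 of 20 translation factors higher (median 1.20) with Eif4a2 lower (-0.53 ± 0.19), and 15 of 15 cell cycle genes higher (median 1.78). Myc had the highest change of its list at 3.99 ± 0.23, with 172 and 149.7 FPKM in HF-SC and 109 and 127 in HF-ORS. Of the mitochondrial ribosomal protein genes 13 of 71 were higher, against 25.2% of all genes, and 6 lower, against 27.9%, with a median of 0.20 beside 1.27 for the cytosolic ones.

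Other abundant genes were set beside the members by transcript length. The members' transcripts had a median length of 712 bases. Among 269 other genes under 1000 bases with a median of at least 50 FPKM, 55.4% were called higher in epithelium and the median change was 0.58. It was 0.43 for 254 genes of 1000 to under 2000 bases and 0.23 for 320 genes of 2000 bases or more. The change was higher in shorter genes, and the members' median of 1.12 lay above that of short genes of the same comparison. The part of length in the members' change was not tested.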

How the data were processed

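RNA was measured in 28 libraries of 14 sorted populations. Per the labels' protocols, 6 ng of total RNA with an integrity number of at least 8.8 was amplified and 100.0 ng of cDNA entered each library. Per the submitters' processing notes, TopHat2 2.0.3, Bowtie2, Cufflinks 2.1.1 and the mm10 build were used. The authors deposited FPKM values, 1 column per library. Read counts are not recoverable from them, so the sequencing depth behind each value is unknown and no counting interval is given. The upper quartile of FPKM over the rows kept was nearly the same in all libraries (10.3 to 11.1), and which scaling between libraries the authors applied is not given in the sources used here.

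Of 23235 rows, 220 that repeated another row exactly were dropped. FPKM was analysed as log2(FPKM + 1), so fold changes of low genes are understated. The 15052 genes that reached 1 FPKM in 2 or more libraries were fitted with limma 3.58.1 in R 4.3.3, with 1 mean per population over all 28 libraries and an intensity trend in the variance (14 residual degrees of freedom). P-values were two-sided and adjusted by Benjamini-Hochberg over all genes. The script was tested on simulated data. Summaries used pandas 2.3.3. The members and all gene lists were chosen with earlier results of these data known. Genes were named by a rule: paralogs and their parents, the 5 highest and lowest medians, the 5 largest called changes in each direction per comparison (all if 10 or fewer) among genes above 0 throughout, the 6 largest F values, both disease and mutant lists, and the 2 largest changes each way of other lists. A gene that the rule names is not reported here. Reads shared between ribosomal protein genes and their many processed copies may have been split or lost, and how they were assigned is not given in the sources used here. Alternatives covered the pseudocount, the filter, scaling, exact zeros, a minimum fold, a replicate block and leaving out each library.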

Additional observations from a re-analysis of the deposited data

How the results depend on the processing

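The direction of the members' median held in epithelium against mesenchyme and in the sheath sorts against the papilla subtypes under every alternative except centring on the median member, which sets it near 0 by construction. Counts of members called follow, with those of all 15052 genes in brackets. Quantile normalization gave 48 in the first (6504), 42 in the second (7642) and 26 among the 8 populations (7109). It gave 3 in DP against DF (1143) and 1 in Mc against DF (2586). Scaling to a common FPKM sum gave 38 among the 8 populations (7160) and 1 in Mc against DF (2840). It turned the calls over all genes in epithelium against mesenchyme from 3361 higher of 6640 to 2001 of 6347. Centring gave 5 in epithelium against mesenchyme (10849), 24 in the sheath (12016), 2 among the 8 populations (9609) and 1 in Mc against DF (2511). Treating exact zeros as missing gave 2 in Mc against DF (2440 of 13598 genes). Asking for a log2 change of at least 1 also gave 2 there (2738). Under quantile normalization Rpl39 (-0.13) and Rps27 (-0.070) turned negative in epithelium against mesenchyme, and Rpl10 (-0.18), Rpl11 (-0.024), Rpl35a (-0.18), Rpl38 (-0.10), Rpl39 (-0.045) and Rps27 (-0.33) did so in the sheath comparison. Of 68 called changes of named members, 29 had the opposite sign when centred. The cause of these changes was not tested.

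Relative to the mean of the 14 populations, the summed level was 0.444 in G-DP and 0.560 in DP as deposited, and 0.571 and 0.668 with a common FPKM sum. Under quantile normalization it was 1.06 in Epi, 1.03 in DF, 0.793 in DP, 1.27 in TAC, 0.865 in ZZ-DP, 0.775 in G/AA-DP, 0.759 in G-DP, 0.832 in AA/ZZ-DP and 1.04 in HF-ORS, and all 6 epithelial sorts stayed above all 5 papilla sorts.

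Leaving out 1 library at a time gave 66 to 78 calls in epithelium against mesenchyme, 71 to 77 in the sheath, 35 to 64 among the 8 populations, 0 to 7 in Mc against DF, 0 to 2 in DP against DF (2 when DF replicate 2 or DP replicate 2 was left out) and 0 to 3 in G-DP against AA/ZZ-DP (3 without G-DP replicate 1). It gave 0 in the other 5 comparisons. A lone library was then assumed to vary like the other populations.

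Libraries with the same number deviated together in 27 of 28 pairs of the K14-H2BGFP line (r over 0.1). They also did so in the Sox2-GFP line (0.285) and the Crabp1-GFP line (0.283), but not in the Sox9-GFP line (0.07). The main fit did not take the numbers as pairs, so its counts can be too low where libraries of the same number share a deviation. Counts with a replicate block within each mouse line are given with those of all 15052 genes in brackets. They were 79 in epithelium against mesenchyme (7788), 77 in the sheath (8998) and 77 among the 8 populations (9135). In Mc against DF 17 members were called, 16 of them higher (1859 of all genes higher). There were 6 in DP against DF (1776), 2 in HF-SC against HF-ORS (1369) and 1 in ORS against Epi (2231). In DP against DF, HF-SC against HF-ORS and ORS against Epi the members' share was below that of all genes. Depth is unknown, and with 2 libraries per population single changes of about 0.5 on the log2 scale were not called.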

Other observations

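Within the family, some genes differed between the library numbered 1 and that numbered 2 in the same way in all 14 populations, although these come from 4 mouse lines. Relative to the median member, Rpl29, Rps2, Rpl13, Rpl18 and Rps20 were higher in the library numbered 1 in 14 of 14 populations, and Rpl5, Rpl15, Rps25 and Rps15a in none. The median of this difference was 0.60 on the log2 scale for Rpl29 and -0.56 for Rpl5. Rpl29 measured 1507 and 781 FPKM in Mx, 1007 and 391 in DF and 724 and 295 in ZZ-DP, while Rpl5 measured 714 and 918, 357 and 427, and 214 and 210.1 in the same libraries. Both numbers are present in every population, so the comparisons above are balanced for them.

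In the 8 papilla subtype libraries the FPKM of Rps14 ran from 115 to 765, that of Rps13 from 60.2 to 330.4 and that of Rpl24 from 83.5 to 442, where Rps6 ran from 235 to 331. Rps3 measured 307 FPKM in G-DP replicate 2 and 103 to 134 in the other 7 libraries of the papilla subtypes. These genes were named after their values were seen.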
